A study of Mus musculus with 12 samples.

Results

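Semaphorins are secreted or membrane-bound guidance proteins, plexins are their receptors, and neuropilins are co-receptors that most secreted semaphorins need in order to act through plexins. The family was followed after spared nerve injury in the dorsal root ganglion, where the sensory neurons of body and limbs have their cell bodies. Its members were taken by gene symbol, as every row of the expression files that starts with Sema or Plxn or is Nrp1 or Nrp2. This gave 32 of 24060 genes, namely 20 semaphorins, 9 plexins, 2 neuropilins and Plxna4os1, an RNA gene on the strand opposite Plxna4.

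There were 3 RNA-seq libraries from naive ganglia and 3 from each of days 1, 3 and 7 after injury, all of male adults of the C57BL/6J strain (9 to 10 weeks). In this model of neuropathic pain ligation and transection of the common peroneal and tibial nerves leave the sural nerve as the spared branch of the sciatic nerve. Sham-operated mice were not analysed here, and the effect of surgery cannot be told apart from that of the nerve injury. The labels give neither the number of animals behind a library nor any pooling. The spread behind the p-values is that between these libraries and may be technical.

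As background, semaphorin binding makes the plexin's intracellular domain switch off small GTPases of the Ras and Rap families, and growth cones then turn or collapse. Class 3 semaphorins are secreted and mostly bind neuropilins, whereas class 4, 5, 6 and 7 members are held at the membrane and bind plexins or integrins directly. Sema6a, a transmembrane member, binds the receptors Plxna2 and Plxna4 in the mouse. Sensory axons are a classical target of Sema3a, which repels them during development.

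Levels are given in RPKM as deposited, a read density corrected for the length of the gene and the size of the library. Levels of different genes were set side by side on this scale. The RNA was amplified from low input, and differences between genes in amplification were not tested. Library sizes were 13627000 to 17953000 reads. Skeletal muscle transcripts stood apart in naive replicate 1 and day 7 replicate 2, with 39.9 and 28.5 RPKM summed over 8 muscle genes, against 1.25 to 7.45 RPKM in the other 10 libraries. The 12 markers of sensory neurons were all present, and their summed level lay between 1220 and 2210 RPKM. Of 8 markers of T and B cells none passed the expression filter.

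Of the 32 members, 29 passed an expression filter of at least 1 RPKM in at least 3 libraries and were tested with limma among 14195 genes. The 3 that did not pass were Sema3a at 0.0229 to 0.199 RPKM (3 to 22 reads), Sema3g at 0.215 to 1.21 RPKM (14 to 65 reads) and Sema6b at 0.345 to 1.11 RPKM (23 to 67 reads). Fold changes were taken from log2(RPKM + 0.5) after scaling between libraries, and this understates the change of low genes. RPKM levels, their ranges and their overlap between groups are given before that scaling, whose factors were 0.909 to 1.10. Adjusted p-values are Benjamini-Hochberg values over all 14195 genes.

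Sema6a, its receptor Plxna4, the opposite-strand RNA Plxna4os1 and the transmembrane semaphorin Sema4f were higher than in naive ganglia at days 1, 3 and 7. Secreted Sema3c was higher at days 3 and 7. Its calls at these days ended in 9 and 7 of 22 alternative settings, and those of Sema4f at days 1 and 7 in 8 and 4. At day 7 the calls of Plxna4 and Plxna4os1 ended in 1 and 2 of them, while those of Sema6a held in all. At day 1 limma called 4 of the 29 tested members (13.8%) higher, against a background of 2.64% of all genes called higher. At day 3 it called 5 (17.2%) higher, against 3.68%, and at day 7 again 5 (17.2%), against 2.25%. Plxna4os1 is in each of these counts. Its reads cannot be told apart from those of unspliced Plxna4 transcripts, so the Plxna4 locus may be counted more than once. No tested member was called lower in these comparisons, against 0.817%, 2.03% and 0.627% of all genes at days 1, 3 and 7. At an unadjusted p under 0.05 there were 6, 11 and 8 members at days 1, 3 and 7, against 14.9%, 17.9% and 13.1% of all genes. Those that were lower were Plxnd1 at day 1, Plxna2, Plxnc1, Plxnd1 and Sema3e at day 3, and Plxna2, Sema3e and Sema3f at day 7, and voom called Sema3e lower at day 3. In either direction at the adjusted threshold 3.46%, 5.71% and 2.88% of all genes were called at days 1, 3 and 7.

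**Figure D1:**
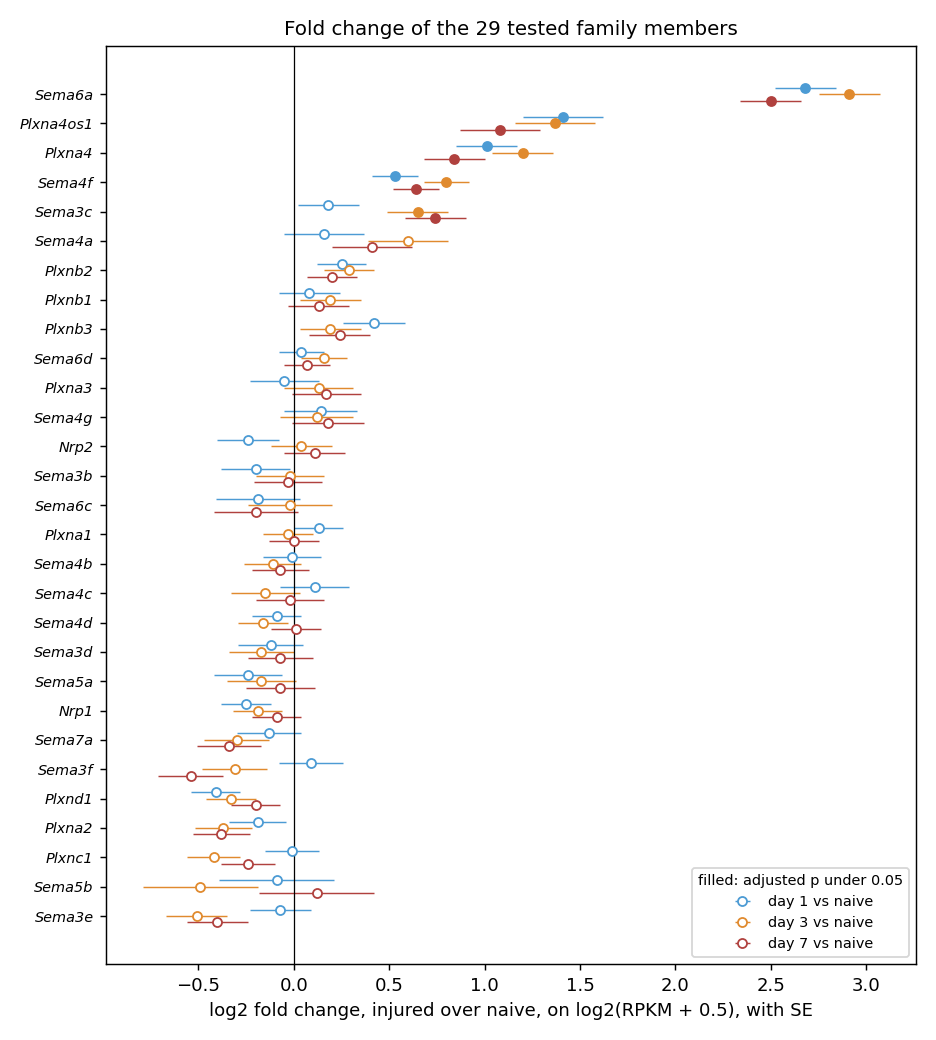
Log2 fold change of each injured group over naive for the 29 tested members, with its SE, on the log2(RPKM + 0.5) scale; filled points have an adjusted p under 0.05 in limma. Sema6a stands apart at 2.50 to 2.91, followed at day 3 by Plxna4os1, Plxna4, Sema4f and Sema3c.

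Over the 29 tested members the median log2 fold change was -0.01, -0.02 and 0.01 at days 1, 3 and 7, while the median over all genes tested was 0 at each day. Over the 24 members called in no comparison, log2 fold changes lay between -0.41 and 0.42 at day 1, between -0.51 and 0.60 at day 3 and between -0.54 and 0.41 at day 7. The 95% interval lay within 1 log2 unit of naive for all 24 at days 1 and 7 and for 22 of them at day 3. A test of all 4 groups together called 5 of 29 members, against 4.85% of all genes, namely Sema6a, Plxna4, Plxna4os1, Sema4f and Sema3c.

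The unscaled RPKM of the groups did not overlap for 9, 14 and 12 of the 29 members between days 1, 3 and 7 and naive, against 22.7%, 26.5% and 18.1% of all genes. Of these members 3, 5 and 3 were lower after injury, against 11.7%, 12.7% and 7.13% of all genes.

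Sema6a lies on the minus strand of mouse chromosome 18 from 47235598 to 47368870 (mm10, GENCODE M21). In naive ganglia it stood at 10.1, 10.9 and 9.69 RPKM, at day 1 at 78.8, 62.9 and 62.7 RPKM, at day 3 at 89.8, 82.4 and 75.2 RPKM, and at day 7 at 65.6, 67.8 and 52.0 RPKM. Every injured library was above every naive library, and the 3 day 3 libraries were above the 3 day 7 libraries.

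The log2 fold change of Sema6a over naive was 2.68 at day 1 (SE 0.16, 95% interval 2.33 to 3.03, adjusted p = 9.56e-07). It was 2.91 at day 3 (SE 0.16, 2.56 to 3.26, adjusted p = 1.26e-07) and 2.50 at day 7 (SE 0.16, 2.15 to 2.85, adjusted p = 6.91e-07). Among all 14195 genes tested it was the 7th largest rise at day 1, the 17th at day 3 and the 18th at day 7. The injured days did not pass the test against each other. The largest of those differences was the lower level at day 7 than at day 3 (log2 fold change -0.42, 95% interval -0.76 to -0.07, adjusted p = 0.933).

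The other class 6 semaphorins did not pass at any day. Sema6d, a transmembrane ligand of Plxna1, stood at 51.5, 54.3 and 52.3 RPKM in naive ganglia, 52.8, 54.4 and 54.3 RPKM at day 1, 61.7, 56.9 and 62.6 RPKM at day 3, and 57.8, 56.9 and 55.2 RPKM at day 7. Before scaling, libraries of days 3 and 7 lay above the naive ones by a small margin. The scaling factors were 0.952 for naive replicate 2 and 1.04 for replicate 2 of days 3 and 7, and once scaled both days overlapped naive. The log2 fold changes of Sema6d were 0.04, 0.16 and 0.07 at days 1, 3 and 7, with 95% intervals that reached at most 0.41. Sema6c stood at 0.892 to 2.14 RPKM over all 12 libraries.

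**Figure D2:**
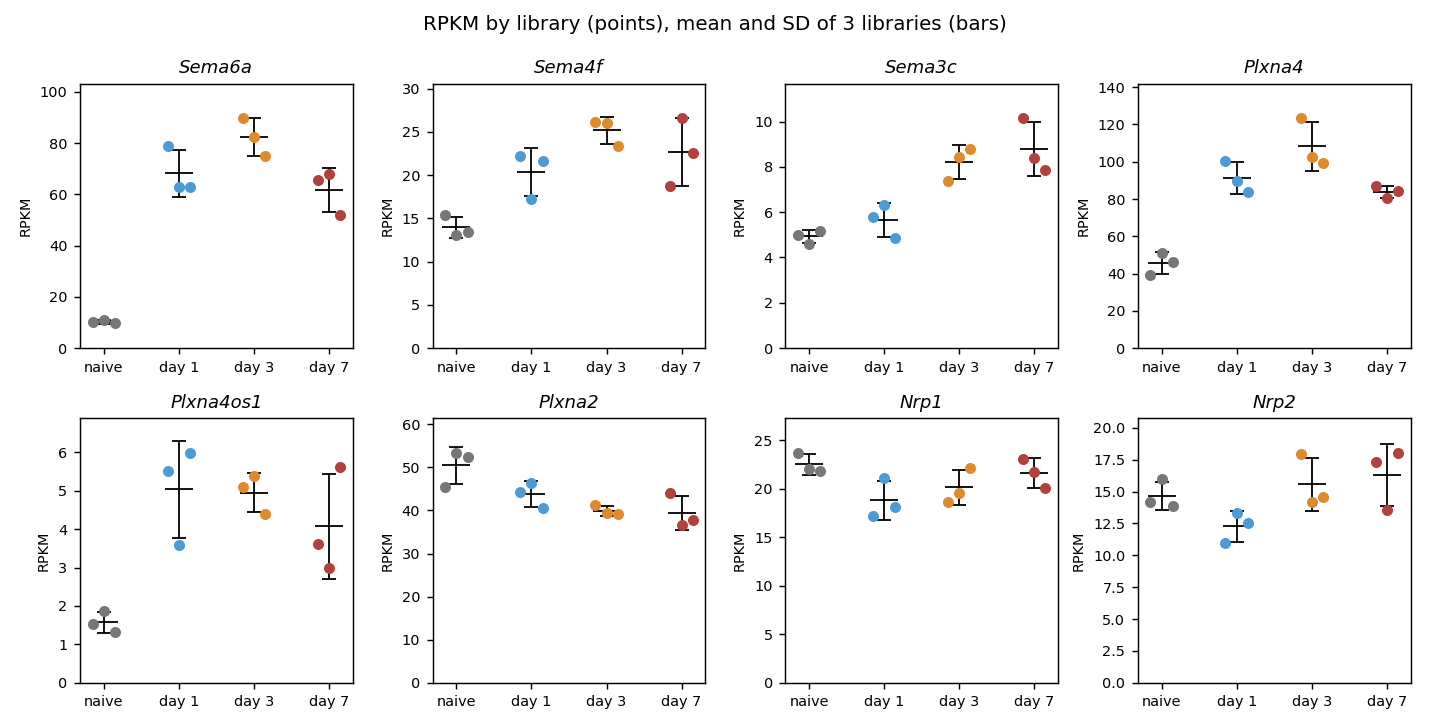
RPKM of 8 members in each library (points) in naive ganglia and at days 1, 3 and 7, with the mean and SD of 3 libraries (bars); each vertical axis starts at 0. Sema6a is at 9.69 to 10.9 RPKM in naive libraries and at 52.0 to 89.8 RPKM in injured ones, while Plxna2, Nrp1 and Nrp2 did not pass the test against naive at any day.

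Sema4f, a class 4 transmembrane semaphorin, lies on the minus strand of chromosome 6 from 82911885 to 82939769. The 250 bases before its start are shown because, among the called semaphorins, its upstream window was in the promoter table and lay outside its annotated exons. They were taken from RefSeq (GRCm38.p6, the assembly of mm10), at chr6:82939770-82940019 on the minus strand, and are printed 5′ to 3′ with capitals marking CCAAT boxes read on the opposite strand.

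Sema4f upstream: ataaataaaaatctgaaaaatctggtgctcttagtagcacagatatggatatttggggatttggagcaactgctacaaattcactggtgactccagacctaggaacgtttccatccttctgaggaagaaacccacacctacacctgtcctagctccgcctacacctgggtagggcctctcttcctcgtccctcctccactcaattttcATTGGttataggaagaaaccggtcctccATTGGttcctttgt

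The window held 2 CCAAT boxes (CCAAT on either strand), which start 42 and 14 bases before the transcript start. CCAAT boxes stood in 33.85% of the 32851 promoter windows of the same length, and this motif was added after the sequence had been seen. Motifs of injury-induced factors were also sought. The AP-1 motif TGANTCA, bound by Atf3 and Jun partners, is in 6.75% of all windows, the CRE motif TGACGTCA in 1.55% and the STAT motif TTCNNNGAA in 7.02%. All 3 read the same on both strands, and none of them is in these letters of Sema4f. Of the 37 windows listed for 26 members, 3 held the AP-1 motif and none held the CRE or STAT motif.

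Sema4f stood at 15.4, 13.1 and 13.4 RPKM in naive ganglia, 22.2, 17.2 and 21.6 RPKM at day 1, 26.2, 26.04 and 23.4 RPKM at day 3, and 18.8, 26.6 and 22.6 RPKM at day 7. All 9 injured libraries were above the 3 naive ones. Its log2 fold change was 0.80 at day 3 (SE 0.12, adjusted p = 0.00121), 0.53 at day 1 (SE 0.12, adjusted p = 0.0285) and 0.64 at day 7 (SE 0.12, adjusted p = 0.00974).

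The day 3 call of Sema4f held under each of the 22 alternatives tried, with an adjusted p of at most 0.00967. At day 1 the call ended in limma when naive replicate 1, 2 or 3 was left out (adjusted p = 0.063, 0.11 and 0.12), or day 1 replicate 1 or 3 (0.159 and 0.0831). It also ended with no scaling (0.0641) and with a replicate block (0.0539). At day 7 it ended when naive replicate 2 or 3 was left out (0.0516 and 0.0555), or day 7 replicate 2 (0.0524). Without the 2 libraries with muscle transcripts the adjusted p was 0.0523 at day 1 and 0.103 at day 7.

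Of the other class 4 members, Sema4a, which has roles in immune cells, stood at 1.27 to 2.02 RPKM in naive ganglia and did not pass at any day. Its level was 2.27 to 3.39 RPKM at day 3, above all naive libraries, with a log2 fold change of 0.60 (95% interval 0.15 to 1.05, adjusted p = 0.128). Sema4d, a ligand of Plxnb1 that oligodendrocytes and lymphocytes also make, stood at 9.90 to 14.95 RPKM over the 12 libraries, and Sema4b at 5.18 to 8.13 RPKM. Sema4c and Sema4g lay between 1.51 and 3.28 RPKM.

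Sema3c, a secreted semaphorin that acts through neuropilins, lies on the plus strand of chromosome 5 from 17574281 to 17730268. It stood at 5.01, 4.59 and 5.17 RPKM in naive ganglia, 5.79, 6.31 and 4.85 RPKM at day 1, 7.38, 8.44 and 8.80 RPKM at day 3, and 10.2, 8.39 and 7.88 RPKM at day 7. Day 1 overlapped naive, whereas all libraries of days 3 and 7 were above all libraries of naive and day 1. The log2 fold change over naive was 0.18 at day 1 (adjusted p = 0.684), 0.65 at day 3 (SE 0.16, adjusted p = 0.0328) and 0.74 at day 7 (SE 0.16, adjusted p = 0.0226).

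The later levels of Sema3c did not pass against day 1, with log2 fold changes of 0.46 for day 3 (adjusted p = 0.338) and 0.56 for day 7 (adjusted p = 0.162). Its day 3 call ended without naive replicate 1, 2 or 3 (adjusted p = 0.0922, 0.117 and 0.0759) and without day 3 replicate 1, 2 or 3 (0.0656, 0.104 and 0.111) in limma. It also ended with no expression filter (0.0563) and with a replicate block (0.0532). Its day 7 call ended without naive replicate 1, 2 or 3 (0.0832, 0.0902 and 0.0645) and without day 7 replicate 1 or 2 (0.062 and 0.0503), and with only naive and day 7 fitted (0.0636). Without the 2 libraries with muscle transcripts the adjusted p was 0.109 at day 3 and 0.145 at day 7.

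Markers of macrophages were higher at days 3 and 7, when Sema3c was higher too. The summed level of 13 macrophage markers was 39.0 to 55.4 RPKM at day 3 and 41.8 to 68.3 RPKM at day 7, against 14.7 to 22.5 RPKM in naive ganglia, and none of the 13 was at 0 in all libraries. Of the 11 tested, 6 were called higher at day 3 and 7 at day 7, against 3.68% and 2.25% of all genes. At day 1, when Sema3c overlapped naive, the sum was 20.4 to 22.7 RPKM and 0 of the 11 passed. Fibroblast sums overlapped between groups, at 188 to 242 RPKM at day 3, 167 to 313 RPKM at day 7 and 157 to 248 RPKM in naive ganglia. Of 6 fibroblast markers tested, 1, Col3a1, was called lower at day 1, against 0.817% of all genes. In whole ganglia, fewer cells of a type and less RNA per cell cannot be told apart, and the part of these cells in the Sema3c level was not tested.

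Sema3e, which binds Plxnd1 without a neuropilin, was lower in RPKM at day 3 than in any naive library but did not pass. It stood at 3.25, 3.45 and 3.98 RPKM at day 3, against 4.91, 4.78 and 5.77 RPKM in naive ganglia (log2 fold change -0.51, 95% interval -0.86 to -0.16, adjusted p = 0.0893). It passed with voom on recovered reads (log2 fold change -0.57, adjusted p = 0.0262) and with array weights (-0.54, adjusted p = 0.0139). Array weights, which count deviating libraries less, also called it lower at day 7 (-0.54, adjusted p = 0.0435). Both settings called more of all genes than limma did. At day 3 voom called 1068 of 14188 genes and array weights 1943 of 14195, against 810 in limma. At day 7 array weights called 849, against 409.

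Sema3f, which repels axons through Nrp2, was lowest at day 7 with 0.858, 1.10 and 1.17 RPKM, against 1.99, 1.63 and 1.495 RPKM in naive ganglia. The groups did not overlap, and the log2 fold change of -0.54 did not pass (adjusted p = 0.14). Sema3b stood at 7.98 to 15.4 RPKM and Sema3d at 2.57 to 3.83 RPKM. Sema3a, the classical repellent of sensory axons, was present at 3 to 22 reads a library.

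Of the other semaphorins, Sema5a, a transmembrane guidance protein with thrombospondin repeats, was the highest in naive ganglia at 62.6 ± 4.67 RPKM (SD, n = 3). Its log2 fold changes of -0.24, -0.17 and -0.07 at days 1, 3 and 7 did not pass. Sema7a, which is anchored to the membrane by a lipid and binds integrins and Plxnc1, stood at 3.10 to 6.19 RPKM. Sema5b stood at 0.625 to 2.74 RPKM.

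The summed level of the 20 semaphorins was 200.7 ± 3.43 RPKM in naive ganglia, 254 ± 7.84 RPKM at day 1, 285 ± 14.1 RPKM at day 3 and 265.5 ± 7.14 RPKM at day 7 (SD, n = 3 each). The 19 genes other than Sema6a summed to 190.5 ± 3.95, 186 ± 5.32, 203 ± 7.90 and 204 ± 1.95 RPKM in the same order of groups. Sema6a was 4.80% to 5.55% of the semaphorin sum in naive ganglia. Its share was 24.7% to 30.2% at day 1, 27.3% to 29.8% at day 3 and 20.2% to 25.0% at day 7. It ranked 4th to 6th among semaphorins in naive libraries, 1st in every library of days 1 and 3, and 1st to 3rd at day 7. At day 7 Sema6a, Sema5a and Sema6d averaged 61.8 ± 8.55, 61.1 ± 7.62 and 56.6 ± 1.36 RPKM, levels that lie within their spread of each other.

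**Figure D3:**
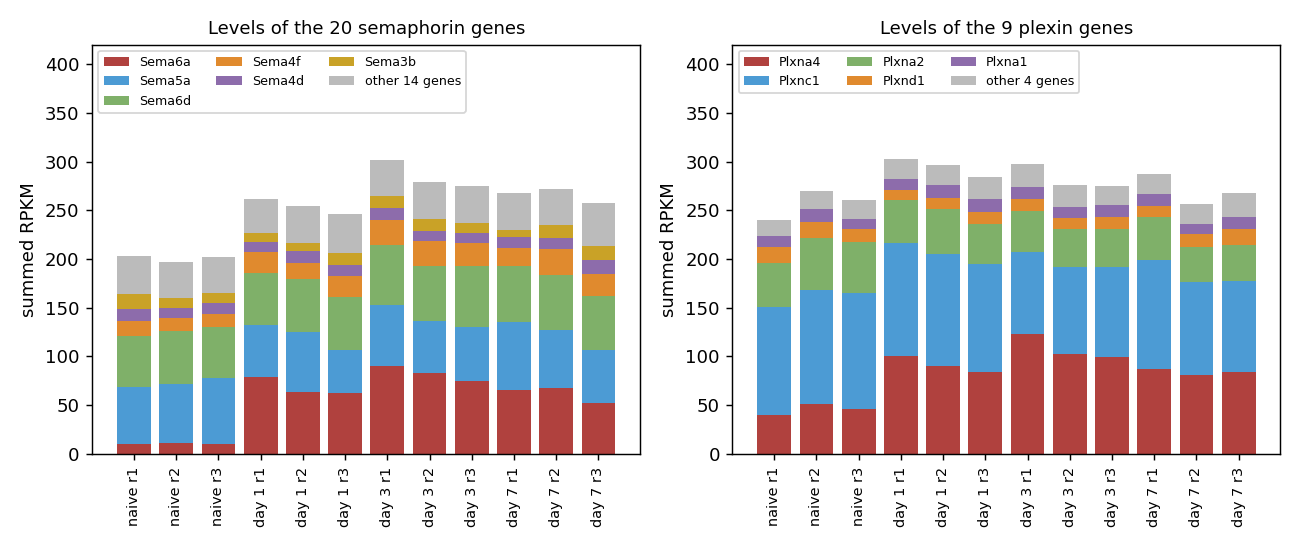
Summed RPKM of the 20 semaphorins (left) and the 9 plexins (right) in each library, divided by gene, in naive ganglia and at days 1, 3 and 7 (r1 to r3 are replicates). The Sema6a segment grows to 20.2% to 30.2% of the semaphorin sum in injured libraries, against 4.80% to 5.55% in naive ones, and the Plxna4 segment widens among the plexins.

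Among the receptors, Plxna4 was the plexin that passed. It lies on the minus strand of chromosome 6 from 32144268 to 32588192 and is a receptor for class 6 semaphorins and, with neuropilins, for class 3 members. It stood at 39.4, 51.2 and 46.4 RPKM in naive ganglia, 100.3, 89.7 and 83.7 RPKM at day 1, 123.4, 102.5 and 99.2 RPKM at day 3, and 86.8, 80.3 and 84.2 RPKM at day 7. All 9 injured libraries were above the 3 naive ones.

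The log2 fold change of Plxna4 over naive was 1.01 at day 1 (SE 0.16, adjusted p = 0.00229), 1.20 at day 3 (SE 0.16, adjusted p = 0.000351) and 0.84 at day 7 (SE 0.16, adjusted p = 0.00847). The day 7 call ended without the 2 libraries with muscle transcripts (log2 fold change 0.75, adjusted p = 0.0881), while leaving out any single library kept it, with an adjusted p of at most 0.0461.

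Plxna4os1, an antisense RNA gene on the plus strand of chromosome 6 from 32511073 to 32515576, lies inside the span of Plxna4. Its 1977 exonic bases in GENCODE M21 share 0 bases with Plxna4 exons. The deposited values imply a length of 1909 bases for Plxna4os1 and 12588 bases for Plxna4, so the exons counted may differ from these. Plxna4os1 stood at 1.53, 1.87 and 1.31 RPKM in naive ganglia, 5.52, 3.59 and 5.98 RPKM at day 1, 5.10, 5.37 and 4.38 RPKM at day 3, and 3.602, 2.99 and 5.61 RPKM at day 7. Its log2 fold change was 1.41 at day 1 (adjusted p = 0.00144), 1.37 at day 3 (adjusted p = 0.00117) and 1.08 at day 7 (adjusted p = 0.0101). The day 7 call ended without naive replicate 3 (adjusted p = 0.0602) or day 7 replicate 3 (0.053). The labels do not state strandedness, so reads of Plxna4os1 and of unspliced Plxna4 transcripts cannot be told apart.

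Plxna2, the other receptor of Sema6a, lies on the plus strand of chromosome 1 from 194618218 to 194816869. It stood at 45.5, 53.3 and 52.5 RPKM in naive ganglia, 44.4, 46.4 and 40.6 RPKM at day 1, 41.3, 39.3 and 39.1 RPKM at day 3, and 44.0, 36.6 and 37.8 RPKM at day 7. Before scaling, the libraries of days 3 and 7 were below all naive libraries, and day 1 overlapped naive. The scaling factors were 0.909 for day 7 replicate 1 and 1.04 for naive replicate 1. Once scaled, day 7 overlapped naive too, whereas day 3 stayed below.

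The log2 fold changes of Plxna2 were -0.19 at day 1 (95% interval -0.51 to 0.13), -0.37 at day 3 (-0.68 to -0.05) and -0.38 at day 7 (-0.70 to -0.06). None passed in limma (adjusted p = 0.631, 0.198 and 0.252). Array weights called days 3 and 7 lower (adjusted p = 0.0137 and 0.0169), and day 7 was also called without day 7 replicate 1 (0.0362). Array weights called 1943 and 849 of all 14195 genes at days 3 and 7, against 810 and 409 in limma. Without day 7 replicate 1 the day 7 count was 517. Over the 22 alternatives the adjusted p at day 7 reached 0.584.

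Plxnc1, the receptor of Sema7a, was the highest plexin in naive ganglia at 111, 117 and 119 RPKM. At day 3 it stood at 84.2, 89.0 and 92.3 RPKM, below every library of naive and of day 1, and it did not pass (log2 fold change -0.42 over naive, 95% interval -0.72 to -0.12, adjusted p = 0.103). Plxnd1, the receptor of Sema3e that is prominent in vessels, stood at 10.3, 10.97 and 12.4 RPKM at day 1, against 15.8, 16.9 and 12.8 RPKM in naive ganglia. This did not pass either (log2 fold change -0.41, adjusted p = 0.112). Array weights called Plxnc1 lower at day 3 (adjusted p = 0.00616) and Plxnd1 lower at day 1 (0.0211). Plxnc1 was also called lower at day 3 with no scaling and without day 7 replicate 1. Over all 14195 genes these 3 settings called 1943, 843 and 1075 at day 3, against 810 in limma. At day 1 array weights called 1832, against 491. Markers of endothelium summed to 26.4 to 32.6 RPKM at day 1 and to 27.9 to 30.5 RPKM in naive ganglia.

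Plxna1 and Plxna3, further receptors for class 6 and class 3 semaphorins, stood at 10.6 to 13.8 RPKM and 2.46 to 4.77 RPKM. The B plexins, which bind class 4 members such as Sema4d, stood at 2.99 to 4.52 RPKM for Plxnb1, 5.35 to 7.74 RPKM for Plxnb2 and 5.20 to 8.43 RPKM for Plxnb3. None of these 5 passed at any day in limma, though array weights called Plxnb3 higher at day 1 (log2 fold change 0.43, adjusted p = 0.0421). At that day array weights called 1832 of all 14195 genes, against 491 in limma. Plxna4 made up 29.4% to 33.2% of the summed RPKM of the 9 plexins at day 1, 36.1% to 41.5% at day 3 and 30.2% to 31.4% at day 7, against 16.4% to 19.0% in naive ganglia. Among plexins it ranked 3rd in every naive library, 2nd at days 1 and 7 and 1st in every day 3 library.

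Neither neuropilin passed at any day. Nrp1, a co-receptor for Sema3a and for vascular endothelial growth factor, lies on the plus strand of chromosome 8 from 128358604 to 128503363. It stood at 23.7, 22 and 21.8 RPKM in naive ganglia, 17.2, 21.1 and 18.1 RPKM at day 1, 18.7, 19.6 and 22.2 RPKM at day 3, and 23.1, 21.8 and 20.1 RPKM at day 7. The day 1 libraries lay just below the naive ones, and the later days overlapped them.

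The log2 fold changes of Nrp1 were -0.25 (95% interval -0.53 to 0.04), -0.19 (-0.48 to 0.09) and -0.09 (-0.37 to 0.20) at days 1, 3 and 7, with adjusted p-values in limma of 0.419, 0.503 and 0.877. Nrp2, the co-receptor for Sema3f and Sema3c, averaged 14.7 ± 1.12 RPKM in naive ganglia, 12.3 ± 1.20 RPKM at day 1, 15.6 ± 2.10 RPKM at day 3 and 16.3 ± 2.41 RPKM at day 7 (SD, n = 3 each). It did not pass at any day, and its 95% intervals spanned -0.57 to 0.44 over the 3 days.

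Ratios of RNA levels within a library set the ligand beside its receptors, and protein was not measured. Sema6a was 1.36 to 1.78 times the level of Plxna2 at day 1, 1.92 to 2.18 times at day 3 and 1.37 to 1.85 times at day 7, against 0.185 to 0.222 times in naive ganglia. Relative to Plxna4 it was 0.701 to 0.786 times at day 1, 0.727 to 0.804 times at day 3 and 0.617 to 0.843 times at day 7, against 0.209 to 0.256 times in naive ganglia. Plxna4 itself was 1.94 to 2.99 times the level of Plxna2 in the 9 injured libraries, against 0.866 to 0.960 times in the 3 naive ones, a ratio that was chosen after the values had been seen.

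On the log2(RPKM + 0.5) scale the ratio of Sema6a to Plxna2 averaged 0.77 ± 0.25 in injured ganglia and -2.25 ± 0.13 in naive ganglia (SD, n = 9 and n = 3, exact permutation test over libraries, two-sided p = 0.00455). The difference was 3.01 for Plxna2, 1.68 for Plxna4 and 2.67 for the sum of the other semaphorins. Each of these 3 exact permutation tests gave p = 0.00455 (adjusted p = 0.00455 over the 3), the smallest that 220 splits allow. Sema6a alone already separated these libraries, at 52.0 to 89.8 RPKM in injured and 9.69 to 10.9 RPKM in naive ones. The ratios were also chosen with earlier results known, so the 3 tests restate the Sema6a rise and add no separate support. Every injured library had a higher ratio than every naive library in each of the 3.

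**Figure D4:**
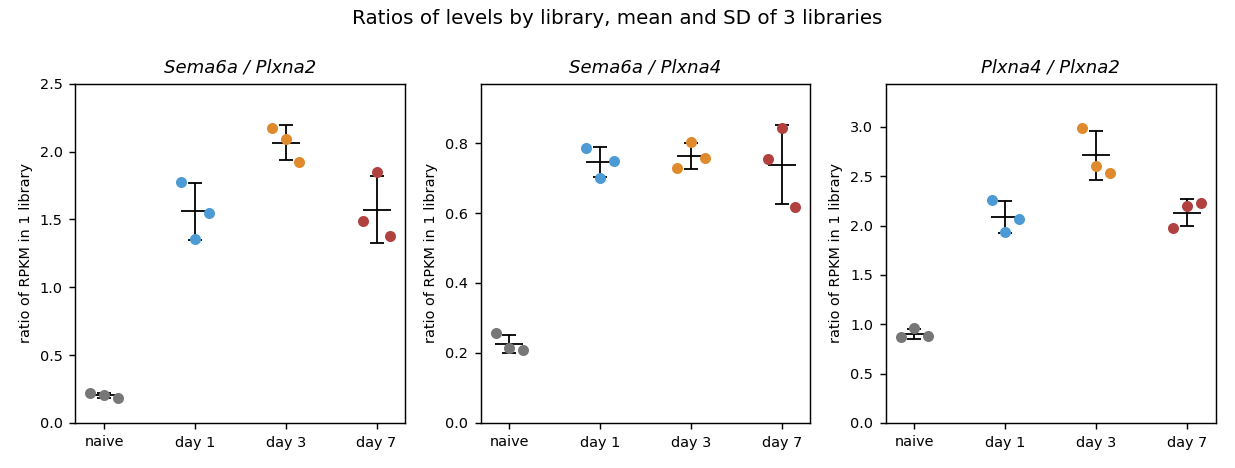
Ratio of RPKM values within each library (points), with the mean and SD of 3 libraries (bars), for Sema6a over Plxna2, Sema6a over Plxna4 and Plxna4 over Plxna2, in naive ganglia and at days 1, 3 and 7; axes start at 0. The injured libraries lie above the naive ones in all 3 panels, with Sema6a over Plxna2 at 1.36 to 2.18 against 0.185 to 0.222.

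Between the injured days no member passed. In limma 0 of the 29 tested members were called for day 3 against day 1 (0.493% of all genes), for day 7 against day 1 (0.965%) and for day 7 against day 3 (0% of all genes). At an unadjusted p under 0.05 there were 5, 3 and 2 members in these comparisons (9.57%, 10.4% and 5.05% of all genes), and voom on recovered reads called 0 in each. Array weights called Plxnc1 lower at day 3 than at day 1 (log2 fold change -0.43, adjusted p = 0.0291). The share of all genes that array weights called in this comparison was not counted.

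Partners and signalling genes of the family were taken from lists. Of 15 tested genes for co-receptors and receptor partners, 0 passed at day 1, 2 were called higher at day 3 and 1 at day 7, against 2.64%, 3.68% and 2.25% of all genes called higher at days 1, 3 and 7, and none was called lower. Chl1, an adhesion molecule that joins neuropilin complexes, stood at 121 ± 9.66 RPKM at day 3 and 153 ± 28.3 RPKM at day 7, against 47.1 ± 1.74 RPKM in naive ganglia (SD, n = 3 each). Its log2 fold changes were 1.32 and 1.65 (adjusted p = 0.000775 and 0.000154 in limma). At day 1 it was 0.55 and did not pass (adjusted p = 0.168), although array weights called it (0.00427). Array weights called 1832 of all 14195 genes at day 1, against 491 in limma. Itgb1, a subunit of the integrins that Sema7a binds, rose by 0.58 at day 3 (adjusted p = 0.0102), a call that ended without naive replicate 2 (0.0624), naive replicate 3 (0.0583) or day 3 replicate 3 (0.0554). At day 7 its 0.46 did not pass (0.0589), whereas voom (0.033) and array weights (0.0113) called it. Of all genes voom called 553 of 14188 at day 7 and array weights 849 of 14195, against 409 in limma.

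Of 36 tested signalling genes, 3 were called higher at day 1, 3 at day 3 and 1 at day 7, against 2.64%, 3.68% and 2.25% of all genes, and none was called lower. The count at day 7 is near that background. The list medians of 0.13, 0.13 and 0.05 stood beside a median of 0 over all genes. Rras2, a small GTPase of the R-Ras group on which plexins act, was higher at all 3 days, at 6.28 ± 1.03, 6.54 ± 0.41 and 7.63 ± 1.75 RPKM at days 1, 3 and 7, against 2.97 ± 0.728 RPKM in naive ganglia. Its log2 fold changes were 0.99, 1.01 and 1.20 (adjusted p = 0.0031, 0.00178 and 0.000658 in limma). Micall1, a relative of the Mical oxidases downstream of plexins, rose by 0.77 at day 1 (adjusted p = 0.00726) and 0.79 at day 3 (0.00401). Its day 1 call ended without day 1 replicate 1 (0.0545). The Mical oxidases themselves, Mical1, Mical2 and Mical3, did not pass at any day (adjusted p of at least 0.245 in limma).

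The other signalling calls were less stable. Farp1, a Rac exchange factor that plexin complexes engage, rose by 0.49 at day 1 (adjusted p = 0.0489 in limma). Its adjusted p was 0.0593 to 0.23 without any one of the 3 naive, 3 day 1 and 3 day 3 libraries or without day 7 replicate 2, and its call also ended with a replicate block (0.102), with no scaling (0.107), with no expression filter (0.0682), with only naive and day 1 fitted (0.0861) and without the 2 libraries with muscle transcripts (0.0859). Crmp1, a collapsin response mediator of the Sema3a signal, rose by 0.53 at day 3 (adjusted p = 0.0317). Its adjusted p was 0.0501 to 0.131 without any one of the 3 naive and 3 day 3 libraries or without day 1 replicate 1. Its call also ended with a replicate block (0.0614), with no scaling (0.086), with no expression filter (0.0521) and without the 2 libraries with muscle transcripts (0.0569). Of the 4 tested growth factors that also bind neuropilins, none passed, and Vegfa, the vascular endothelial growth factor, had log2 fold changes of -0.23, -0.32 and -0.44 at days 1, 3 and 7.

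Markers of the ganglion's main cell types were set beside Sema6a, Plxna4 and Sema4f. The summed level of neuron markers was 1350 to 2050 RPKM at day 1, 1650 to 2210 RPKM at day 3 and 1220 to 2080 RPKM at day 7, against 1570 to 2110 RPKM in naive ganglia. Satellite glia summed to 239 to 410, 316 to 442 and 256 to 494 RPKM, against 317 to 470 RPKM in naive ganglia, and myelinating Schwann cells to 944 to 1500, 1170 to 1590 and 901 to 1640 RPKM, against 1080 to 1560 RPKM. These ranges overlap between each day and naive. A few high genes weigh most in the sums, namely Snap25 and Stmn2 for neurons (646 and 343 RPKM in naive ganglia) and Pmp22 for Schwann cells (1030 RPKM). Overlap of the sums therefore says little about the lower markers. Single markers passed in limma, out of 12 tested for neurons, 8 for satellite glia and 8 for myelinating Schwann cells. For neurons these were Elavl3 (higher at days 1 and 3), Stmn2 (higher) and Prdm12 (lower) at day 3. For satellite glia it was Glul (higher at days 1 and 3), and for Schwann cells Pmp2 (lower at day 1). Of all genes 3.46%, 5.71% and 2.88% were called in either direction at days 1, 3 and 7. At day 7 no marker in these 3 lists passed. The part of these cell types in the family's changes was not tested. The 5 injury genes Atf3, Sprr1a, Gal, Gap43 and Sox11 summed to 148 to 234, 536 to 682 and 320 to 713 RPKM, against 39.8 to 54.8 RPKM in naive ganglia.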

How the data were processed

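RNA-seq of 12 ganglion libraries was analysed. Trizol-extracted, DNase-treated RNA was amplified from low input with Nugen Ovation reagents, per the labels' protocols. The tools named without a role in the submitters' processing notes are STAR, HTSeq, limma, edgeR and bcl2fastq 2.17, with build mm10. The values the authors deposited were read as RPKM from the values themselves, because no unit is written. Within a gene they are whole multiples of 1 read, which gave whole reads for 21590 of 21597 detected genes (tolerance 0.05 reads) and the library sizes. No molecular identifiers are mentioned, so reads may stem from the same molecule.

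Libraries were scaled with unweighted trimmed means of log ratios (30% and 5% trimmed at each end). Values were tested as log2(RPKM + 0.5) with limma 3.58.1 in R 4.3.3, in 1 model of 4 group means (8 residual degrees of freedom, variance trend, robust moderation). Tests were two-sided with a threshold of 0.05, and the script was tested on simulated data. Single genes were tested only in this model, since 3 against 3 libraries cannot go below p = 0.1 in an exact permutation test. Intervals are 95%. Names and positions come from GENCODE M21, which held all 32 members.

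The members, gene lists and the rule for named genes were chosen with earlier results of these data known. The rule names Sema6a, Plxna2, Nrp1 and each called member by library, other members by range, and called pathway genes.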

Additional observations from a re-analysis of the deposited data

How the results depend on the processing

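Alternatives were 2 other pseudocounts, 2 filters, no scaling, only the groups compared, array weights, voom on recovered reads, a replicate block, each library left out and the 2 libraries with muscle transcripts left out. The Sema6a fold changes and the 3 Sema6a ratios kept their direction and side of the threshold in all that apply to them. With 1 library left out, Sema6a ranged over 2.56 to 2.77, 2.82 to 2.99 and 2.37 to 2.68 at days 1, 3 and 7, and its ratios over 2.94 to 3.08 (Plxna2), 1.63 to 1.77 (Plxna4) and 2.62 to 2.73 (other semaphorins). Members called numbered 3 to 4, 4 to 6 and 2 to 5 at days 1, 3 and 7 with 1 library left out, against 4, 5 and 5. At day 7 there were 3 without naive replicate 2, 2 without naive replicate 3 and 3 without day 7 replicate 2. Without the 2 libraries with muscle transcripts 3, 4 and 2 were called. The 4-group test called 4 to 6 with 1 library left out. Array weights called 8 at day 3 (5 higher, 3 lower), 8 in the 4-group test and 1 for day 3 against day 1. For the 4-group test and for day 3 against day 1, the share of all genes called under the alternatives was not counted. Nrp1 at day 7 ranged over -0.21 to 0.02 with 1 library left out and turned to 0.02 without day 7 replicate 3 (adjusted p = 0.974). Over all genes 491, 810 and 409 were called at days 1, 3 and 7, against 1832, 1943 and 849 with array weights and 280, 615 and 163 when the muscle-rich pair of libraries was left out. With 1 library left out these counts ranged over 217 to 607, 437 to 1075 and 230 to 517. The cause of these changes was not tested.

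The labels state no pairing by replicate number. Of 18 same-numbered pairs of libraries 3 had deviations from the group means that correlated above 0.1 (-0.34 to 0.23). Differently numbered pairs reached 0.30 (day 1 replicate 2 with day 7 replicate 1) and -0.35 (day 1 replicate 3 with day 7 replicate 1). With 3 libraries a group such correlations cannot exclude pairing or shared handling. With the replicate block 3, 4 and 5 members were called at days 1, 3 and 7, against 367, 644 and 318 of all 14195 genes. Sema6a then had 2.68, 2.91 and 2.50. Depth limits Sema3a, Sema3g and Sema6b, which were tested only with no expression filter, where none of the 3 was called.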
